A study of Mus musculus with 12 samples.

Results

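The 10 genes described here are Nfe2l2, which encodes the transcription factor Nrf2, its inhibitor Keap1, and 8 antioxidant genes that Nrf2 is known to control: Gclc, Gclm, Slc7a11, Gsr, Txnrd1, Srxn1, Hmox1 and Nqo1. They were taken by symbol as the rows of the count table whose Ensembl gene ID carries one of these names, which gave 10 rows among 78334 gene IDs, of which 51486 have a symbol. Their levels were read in all 12 hypothalamus libraries of the series.

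All 12 libraries came from male C57BL/6 mice that were 8 weeks old at the start, and were taken as 1 library per mouse. Control mice on a standard diet (C, n = 3) and mice made obese with a high-fat diet with 60% of kcal from fat for 8 weeks (Ob, n = 3) received vehicle by gavage. Further mice on the same high-fat diet received 1 of 3 agents: 2.25 mg/kg of resveratrol (Ob + RSV, n = 3), 200 mg/kg of aged garlic extract (Ob + EAE, n = 2) or 50 mg/kg of curcumin (Ob + CUR, n = 1). Gavage was daily for 28 days from 16 weeks of age in all 5 groups. The sources used here differ on whether the high-fat diet ended when gavage began or went on during it. Resveratrol and curcumin are plant polyphenols, and aged garlic extract is a mixture of organosulfur and other compounds. The question for these genes was whether the diet or any of the 3 agents was accompanied by a change in the antioxidant program that such agents are proposed to act on.

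In unstressed cells, Keap1 binds Nrf2 and delivers it to a ubiquitin ligase, so that Nrf2 protein is degraded as fast as it is made. Oxidants and electrophiles modify cysteines of Keap1, Nrf2 escapes, enters the nucleus, pairs with a small Maf protein and binds the antioxidant response element of its target genes. Most of this control acts on the protein, so the mRNA level of Nfe2l2 or Keap1 is not a measure of Nrf2 activity. In brain, target genes of Nrf2 are best known from astrocytes, which export glutathione precursors to neurons.

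Promoter sequences of the members were read from RefSeq windows of 300 bases, 250 before to 50 after the transcription start, on the build GRCm38.p6. Of the 10 genes, 7 had a window there, with 9 windows in all, and 3 (Hmox1, Gclc, Gsr) had none. The core of the antioxidant response element was searched in the forms TGACNNNGC and TGAGNNNGC on both strands. It was found in 5 of the 9 windows, belonging to 5 genes, against 27.8% of all 32851 windows. The 4 windows below are shown because the level of Gclm across libraries was closest to those of Txnrd1 and Slc7a11, and because Srxn1 had 3 matches. Capitals mark the letters that match.
Gclm, chr3:122245307-122245606, plus strand: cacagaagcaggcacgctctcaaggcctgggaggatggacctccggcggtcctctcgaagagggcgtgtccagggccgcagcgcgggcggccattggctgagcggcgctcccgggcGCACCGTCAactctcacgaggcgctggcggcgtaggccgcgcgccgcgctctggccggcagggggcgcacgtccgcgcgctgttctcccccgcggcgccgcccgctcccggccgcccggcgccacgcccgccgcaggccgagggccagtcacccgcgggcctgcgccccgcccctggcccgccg
Txnrd1, second of its 3 windows, chr10:82858956-82859255, plus strand: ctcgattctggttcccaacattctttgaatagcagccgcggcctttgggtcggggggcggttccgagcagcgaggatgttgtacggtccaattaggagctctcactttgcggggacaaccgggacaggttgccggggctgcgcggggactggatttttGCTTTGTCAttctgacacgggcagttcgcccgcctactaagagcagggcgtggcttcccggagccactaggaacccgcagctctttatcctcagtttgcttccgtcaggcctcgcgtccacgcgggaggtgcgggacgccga
Slc7a11, chr3:50443564-50443863, minus strand: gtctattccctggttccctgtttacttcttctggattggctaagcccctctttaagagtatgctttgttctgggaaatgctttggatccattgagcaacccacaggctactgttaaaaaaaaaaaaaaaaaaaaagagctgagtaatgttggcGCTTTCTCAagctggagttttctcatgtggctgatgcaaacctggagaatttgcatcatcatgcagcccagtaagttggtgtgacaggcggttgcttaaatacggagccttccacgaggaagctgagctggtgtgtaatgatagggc
Srxn1, chr2:152105274-152105573, plus strand: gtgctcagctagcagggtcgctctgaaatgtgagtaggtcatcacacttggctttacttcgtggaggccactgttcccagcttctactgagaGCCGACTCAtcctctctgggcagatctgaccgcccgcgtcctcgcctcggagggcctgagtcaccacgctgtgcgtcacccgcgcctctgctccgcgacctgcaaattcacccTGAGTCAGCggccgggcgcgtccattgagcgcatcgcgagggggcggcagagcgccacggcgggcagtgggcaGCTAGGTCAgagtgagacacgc

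The matches began at −134 in Gclm, at −92 in Txnrd1, at −97 in Slc7a11 and at −158, −45 and 28 in Srxn1, as the first base of the match on the gene's strand, counted from the transcription start. The second match of Srxn1 also holds TGAGTCA, the recognition sequence of AP-1. The Nfe2l2 window held 1 match, at −240, and those of Keap1 and Nqo1 held none. A match to these letters is a description of the window and was not tested for binding.

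All 10 genes were detected in all 12 libraries. Levels are CPM, the reads of a gene relative to all reads of its library, with TMM scaling to set the libraries on a common scale. The fewest reads for a member in a library were 50, for Hmox1, and the sum over libraries ran from 948 reads for Hmox1 to 24004 for Srxn1. Library totals ran from 15655156 to 26284661 reads. With CPM divided by exon length in kilobases, the scale on which genes can be compared, Srxn1 was highest at a median of 35.7 CPM per kilobase over the 12 libraries. It was above every other member in each library. Gclc followed at 16.5, Keap1 at 13, Txnrd1 at 11.4, Gsr at 10.1 and Gclm at 9.73 CPM per kilobase. Within these 5, neighbouring genes kept their order in 8 to 10 of the 12 libraries, so neighbours were not separated beyond the spread of the libraries. Gclm was above Nqo1 in all 12 libraries. Nqo1 at 3.78, Slc7a11 at 3.68, Nfe2l2 at 3.54 and Hmox1 at 2.34 CPM per kilobase formed the low end, where neighbours kept their order in 7 to 9 of the 12 libraries. The hypothalamus is bulk tissue, in which fewer cells of a type and less RNA per cell cannot be told apart.

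Some libraries stood apart before any comparison. C replicate 2, Ob replicate 1 and Ob + RSV replicate 2 had 24450 to 26123 genes with a read, against 28632 to 38081 in the other libraries. The 2 Ob + EAE libraries differed from each other by a chi-square of 6.51 per degree of freedom, against 22.4 to 73.2 in the other pairs within a group. They were the closest pair and were not the same counts deposited a second time. Whether they come from separate mice cannot be read from the counts. The Ob + EAE libraries and the Ob + CUR library had 3.79% to 4.12% of reads from mitochondrial genes, against 4.94% to 7.40% elsewhere. They also had the most genes with a read, 37165 to 38081, against at most 36541 elsewhere. The labels do not say whether they were prepared apart from the other libraries, so agent and preparation cannot be told apart. As a check of the tissue, 8 hypothalamic neuropeptide genes summed to between 915 and 3090 CPM in 11 libraries but to 171 CPM in the Ob + CUR library, and 5 anterior pituitary markers summed to at most 15.7 CPM.

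**Figure D1:**
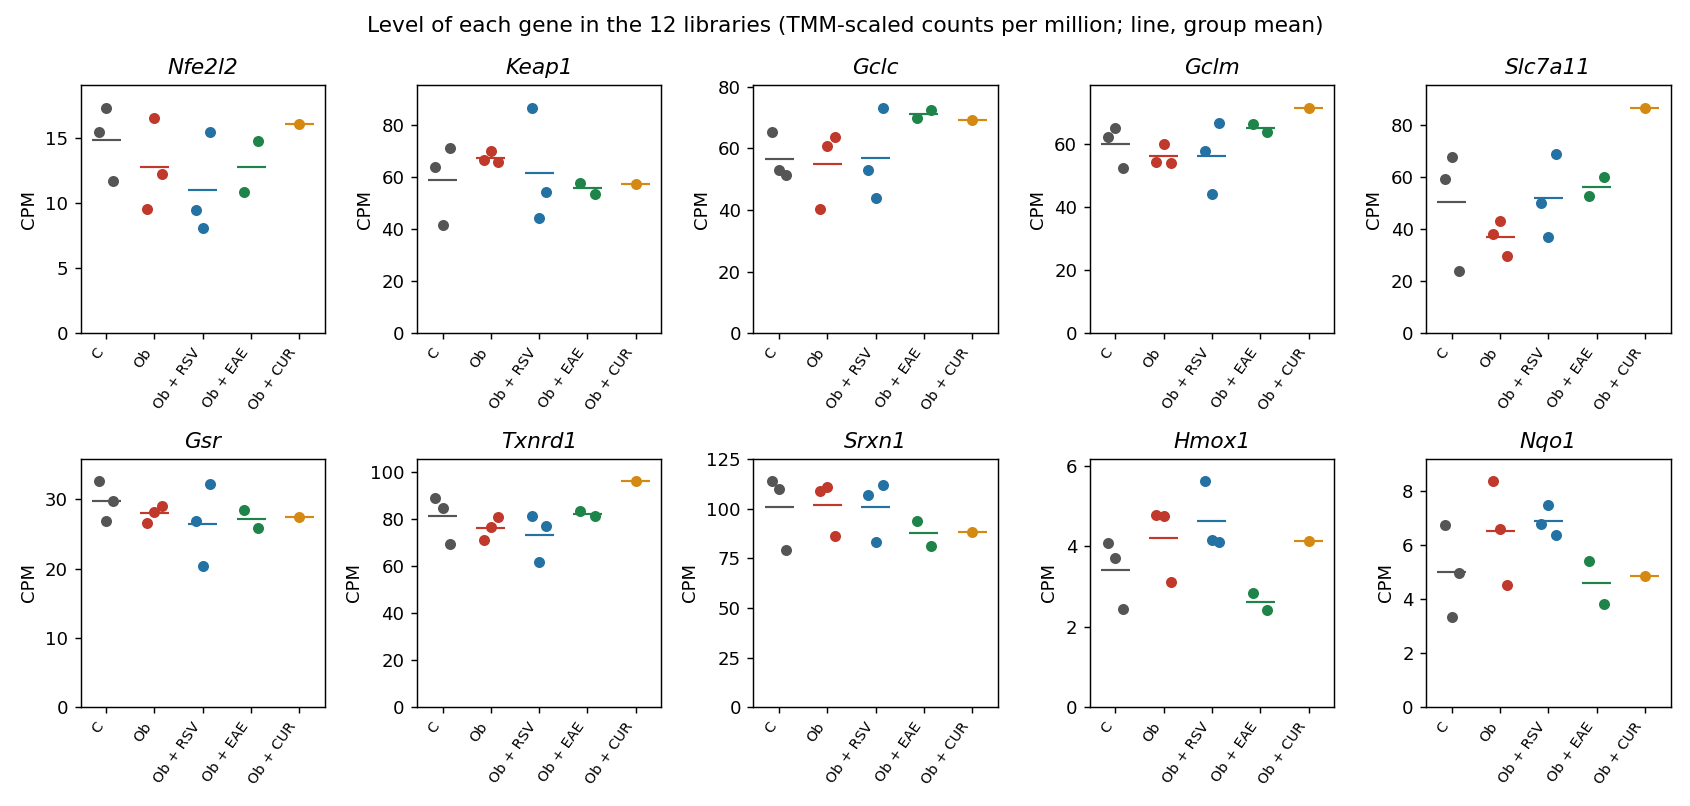
Level of each of the 10 genes in CPM (y axes, from 0) by group (x axes), with 1 point per library and a line at the group mean. The widest spread is that of Slc7a11, from 23.8 CPM in C replicate 3 to 86.6 CPM in the Ob + CUR library.

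Nfe2l2 was measured at 15.4, 17.3 and 11.7 CPM in C, 9.51, 16.5 and 12.2 in Ob, 9.41, 8.1 and 15.4 for Ob + RSV, 10.8 and 14.7 in Ob + EAE and 16 for Ob + CUR. The lowest values were in Ob + RSV and Ob, but each of these groups also had a library at 15.4 CPM or more, and every pair of groups with replicates overlapped. Keap1, the adaptor that holds Nrf2 for degradation, was at 63.8, 41.7 and 71.2 CPM in C, 66.6, 70 and 65.7 in Ob, 86.7, 44.2 and 54.3 for Ob + RSV, 57.9 and 53.6 in Ob + EAE and 57.3 for Ob + CUR. The Ob libraries lay close together, while C and Ob + RSV spanned both lower and higher values. The Ob + EAE libraries were both below the 3 Ob libraries. Over the 12 libraries the levels of Nfe2l2 and Keap1 had a Pearson r of −0.21.

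Gclc and Gclm encode the catalytic and the modifier subunit of glutamate-cysteine ligase, the rate-limiting enzyme of glutathione synthesis. Gclc was at 65.3, 52.9 and 51.3 CPM in C, 40.3, 60.7 and 63.6 in Ob, 53, 44 and 73.2 for Ob + RSV, 69.8 and 72.3 in Ob + EAE and 69 for Ob + CUR. Gclm was at 62.3, 65 and 52.5 CPM in C, 54.3, 60.1 and 53.9 in Ob, 57.6, 44 and 66.6 for Ob + RSV, 66.3 and 63.9 in Ob + EAE and 71.5 for Ob + CUR. Both subunits were higher in the 2 Ob + EAE libraries than in any Ob library, and C, Ob and Ob + RSV overlapped. Gsr, glutathione reductase, which returns oxidised glutathione to its reduced form, stayed between 20.4 and 32.6 CPM in all libraries, with its lowest value in Ob + RSV replicate 2 and overlapping groups.

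Slc7a11 encodes the light chain of the cystine-glutamate exchanger, which brings in cystine for glutathione synthesis. It was at 59, 67.7 and 23.8 CPM in C, 37.9, 43.2 and 29.8 in Ob, 50, 36.8 and 68.7 for Ob + RSV, 52.5 and 59.9 in Ob + EAE and 86.6 for Ob + CUR. C replicate 3 was the lowest of all 12 libraries and the other C libraries were above all 3 Ob libraries, so C and Ob overlapped through that library alone. Ob + EAE lay above Ob without overlap. The within-group SD of Slc7a11 on the log2 scale was 0.52, the highest of the 10 genes, against 0.16 for Txnrd1, the lowest. Over the 29107 genes that pass edgeR's expression filter in the 12 libraries, the median within-group SD was 0.59. The filter follows the smallest group, of 1 library, so these genes include ones with fewer reads than the 12774 of Slc7a11. The SD was not compared at equal depth.

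Txnrd1, thioredoxin reductase of the cytosol, was at 89.1, 85 and 69.6 CPM in C, 71, 76.9 and 80.9 in Ob, 81.6, 61.6 and 77 for Ob + RSV, 83.4 and 81.4 in Ob + EAE and 96.2 for Ob + CUR. Its range over 12 libraries was 1.56-fold. Srxn1, sulfiredoxin, which restores overoxidised peroxiredoxins, ran from 79.4 CPM in C replicate 3 to 114 CPM in C replicate 1, a range of 1.44-fold that was the narrowest of the 10. For Srxn1 the range of C covered every library of the other groups.

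Hmox1, the inducible heme oxygenase, which breaks down heme to biliverdin, iron and carbon monoxide, was at 4.08, 3.71 and 2.44 CPM in C and 4.78, 4.75 and 3.1 in Ob. It was at 5.61, 4.14 and 4.1 CPM in Ob + RSV, 2.83 and 2.41 in Ob + EAE and 4.13 for Ob + CUR. The Ob + RSV libraries were all above the C libraries, with 4.1 against 4.08 CPM at the nearest pair, and the Ob + EAE libraries were both below the Ob libraries. Nqo1, a quinone reductase that is a common readout of Nrf2 activity, was at 6.74, 3.32 and 4.98 CPM in C, 8.36, 6.61 and 4.53 in Ob and 6.78, 7.48 and 6.36 for Ob + RSV. In Ob + EAE it was at 5.39 and 3.82 CPM and in Ob + CUR at 4.85. Among the groups of 3, the Ob + RSV libraries were the closest together. All groups with replicates overlapped except Ob + RSV with Ob + EAE, and the Ob + CUR library was also below the Ob + RSV libraries.

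In Ob vs. C, which asks what the high-fat diet was accompanied by, none of the 10 genes passed the test. A call needed a Benjamini-Hochberg adjusted p under 0.05 in edgeR's quasi-likelihood test with a log2FC of 1 or more, up or down. The adjusted p was 1 for each of the 10 genes. Of 33534 genes tested, 0% were called and 2.75% had an unadjusted p under 0.05, where none of the 10 genes did. DESeq2 called 0 genes as well. C and Ob were free of overlap for 0 of the 10 genes, against 7.65% of all genes. The median log2FC of the 10 genes was −0.085 (3 above and 7 below 0), against −0.003 over all genes tested. Slc7a11 had the lowest value, with a log2FC of −0.46 (SE 0.28, 95% interval −1.04 to 0.12, edgeR adjusted p = 1). Without C replicate 3 the log2FC of Slc7a11 was −0.80 (edgeR adjusted p = 0.408), and without C replicate 2 it was −0.19. Nqo1 had the highest, at 0.35 (95% interval −0.45 to 1.15). For 7 of the 10 genes the whole 95% interval lay inside a log2FC of ±1, and those of Slc7a11, Hmox1 and Nqo1 reached beyond it.

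In Ob + RSV vs. Ob, which asks what resveratrol was accompanied by in obese mice, again none of the 10 genes was called (0% of 33534 genes) and all had an edgeR adjusted p of 1. No member had an unadjusted p under 0.05, against 3.16% of all genes, and DESeq2 called 0 genes. The groups overlapped for all 10 genes, while 6.95% of all genes did not overlap. The median log2FC of the 10 genes was −0.009 and that of all genes was 0. Slc7a11 had a log2FC of 0.49 (SE 0.28, 95% interval −0.09 to 1.07), and the member next farthest from 0 was Nfe2l2 at −0.21. Without Ob + RSV replicate 3 the log2FC of Slc7a11 was 0.22. For Txnrd1, the gene with the smallest SE, the log2FC was −0.06 with a 95% interval of −0.47 to 0.36. This comparison and Ob vs. C share the 3 Ob libraries, so a low value in those libraries lowers one log2FC and raises the other.

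In Ob + RSV vs. C, the log2FC of Hmox1 was 0.42 (95% interval −0.51 to 1.34) and that of Nqo1 was 0.43 (−0.36 to 1.23), and Nfe2l2 was at −0.45 (−1.08 to 0.18). Hmox1 was at 0.22 without C replicate 3 and at 0.27 without Ob + RSV replicate 1, and Nqo1 was at 0.21 without C replicate 2 and at 0.72 without C replicate 1. The edgeR adjusted p was 1 for all 10 genes. None was called (0% of all genes), and none had an unadjusted p under 0.05 (2.87% of all genes), and DESeq2 called 0 genes. Only Hmox1 had groups without overlap, 1 of 10 genes against 5.43% of all genes. Without Ob + RSV replicate 3, Nfe2l2 was at −0.78 (edgeR adjusted p = 0.763), and without Ob + RSV replicate 2 at −0.27.

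In Ob + EAE vs. Ob, fitted over all 12 libraries, none of the 10 genes was called either, although 1.84% of 36164 genes were, 665 in all. Without Ob replicate 1 that number was 18, and without Ob replicate 3 it was 1172. No member had an unadjusted p under 0.05, against 13.4% of all genes. The 2 Ob + EAE libraries lay outside the range of the 3 Ob libraries for 6 of the 10 genes: Gclc, Gclm, Slc7a11 and Txnrd1 were above it, and Keap1 and Hmox1 below. The background for this count was high, at 38.8% of all genes. Slc7a11 had a log2FC of 0.61 (SE 0.30, 95% interval −0.006 to 1.22, edgeR adjusted p = 0.382). Gclc was at 0.37 (SE 0.24, 95% interval −0.11 to 0.86, edgeR adjusted p = 0.561), Keap1 at −0.27 (−0.80 to 0.25) and Hmox1 at −0.68 (−1.68 to 0.31). The median of the 10 genes was −0.018, against 0.046 over all genes. A difference in preparation of the Ob + EAE libraries, on which the labels are silent, cannot be told apart from the extract.

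**Figure D2:**
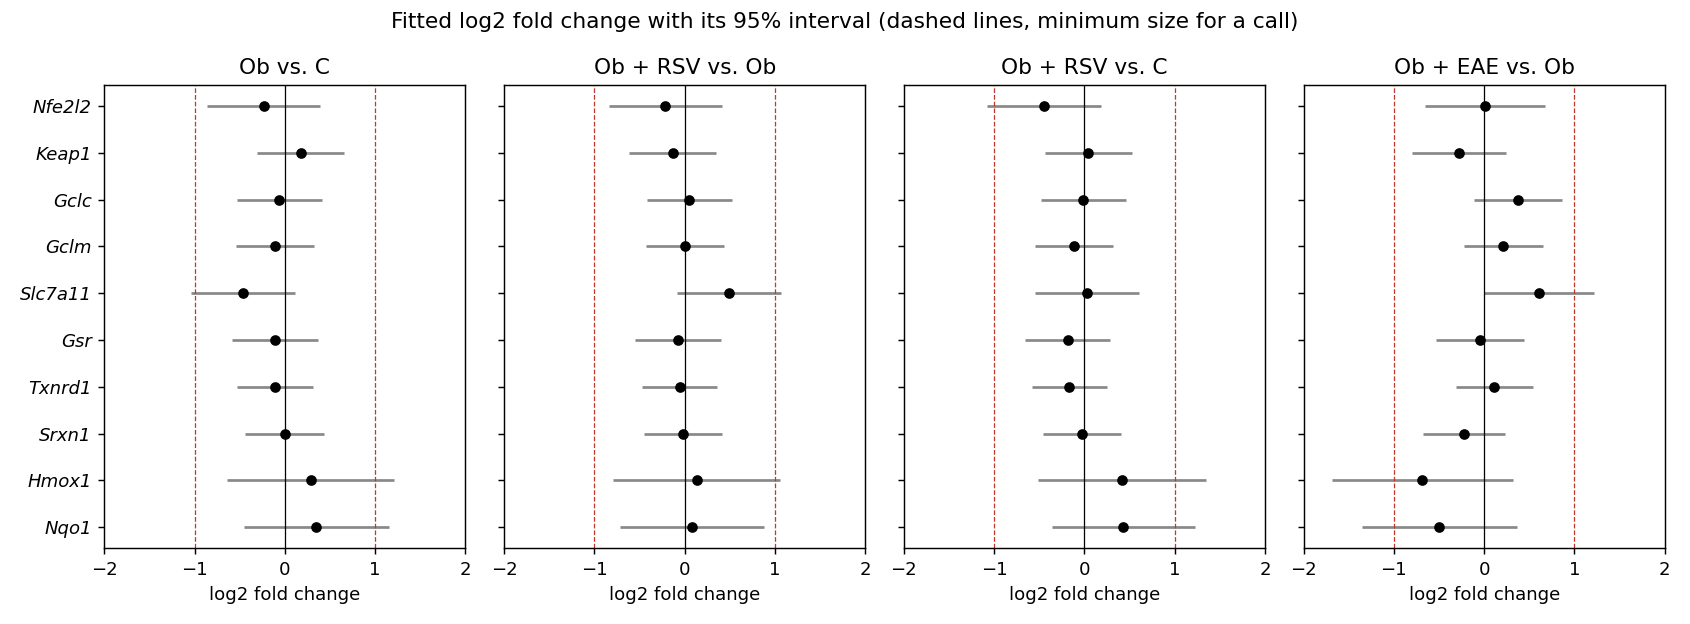
Fitted log2FC of each gene (points) with its 95% interval (bars) in 4 comparisons, on a shared x axis, with dashed lines at the minimum of 1 for a call. Every interval includes 0, and the widest are those of Hmox1, the gene with the fewest reads.

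A test of any difference among the 5 groups gave the smallest value to Slc7a11, with an edgeR adjusted p of 0.473 and an unadjusted p of 0.0325. It was the only member with an unadjusted p under 0.05, against 8.66% of all 36164 genes, and 0 of the 10 passed the adjusted threshold, against 0.727% of all genes. The single Ob + CUR library enters this test and is assumed to vary like the other groups.

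The differences in Ob + EAE vs. Ob moved with the exon length of the genes. Among 15055 genes with 500 or more reads, those with exons of up to 2525 bases had a median log2FC of −0.50 and those with 6691 bases or more a median of 0.37. Slc7a11, with 13922 bases the longest of the 10, had the highest log2FC, and Hmox1 and Nqo1, with 1751 and 1553 bases the shortest, had the lowest. Spearman's rho between log2FC and length over the 10 genes was 0.75, with Keap1, of 4693 bases, among the exceptions at −0.27. The trend had the opposite sign in Ob vs. C, with medians of 0.20 for the shortest and −0.17 for the longest genes, and rho over the 10 genes was −0.74 there. By library, the median of the longest genes minus that of the shortest ran from −0.72 in Ob replicate 1 to 0.60 in Ob + EAE replicate 2 on the log2 scale, with 0.50 in the Ob + CUR library.

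With each library's trend on exon length and GC content removed, an alternative added after the data were seen, Slc7a11 in Ob + EAE vs. Ob was at a log2FC of −0.015 (SE 0.33). Hmox1 was at −0.17 and Nqo1 at −0.06. Gclc, of middle length with 3766 bases, kept its value, at 0.42 (SE 0.20, edgeR adjusted p = 0.392). Keap1 was at −0.24. The number of the 10 genes beyond a log2FC of 0.2 in either direction went from 7 to 2, Gclc and Keap1. After removal, Slc7a11 was at −0.15 in Ob vs. C and at 0.21 in Ob + RSV vs. Ob. With Ob replicate 1 left out, the library with the steepest trend towards short genes, Gclc in Ob + EAE vs. Ob was at 0.23.

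**Figure D3:**
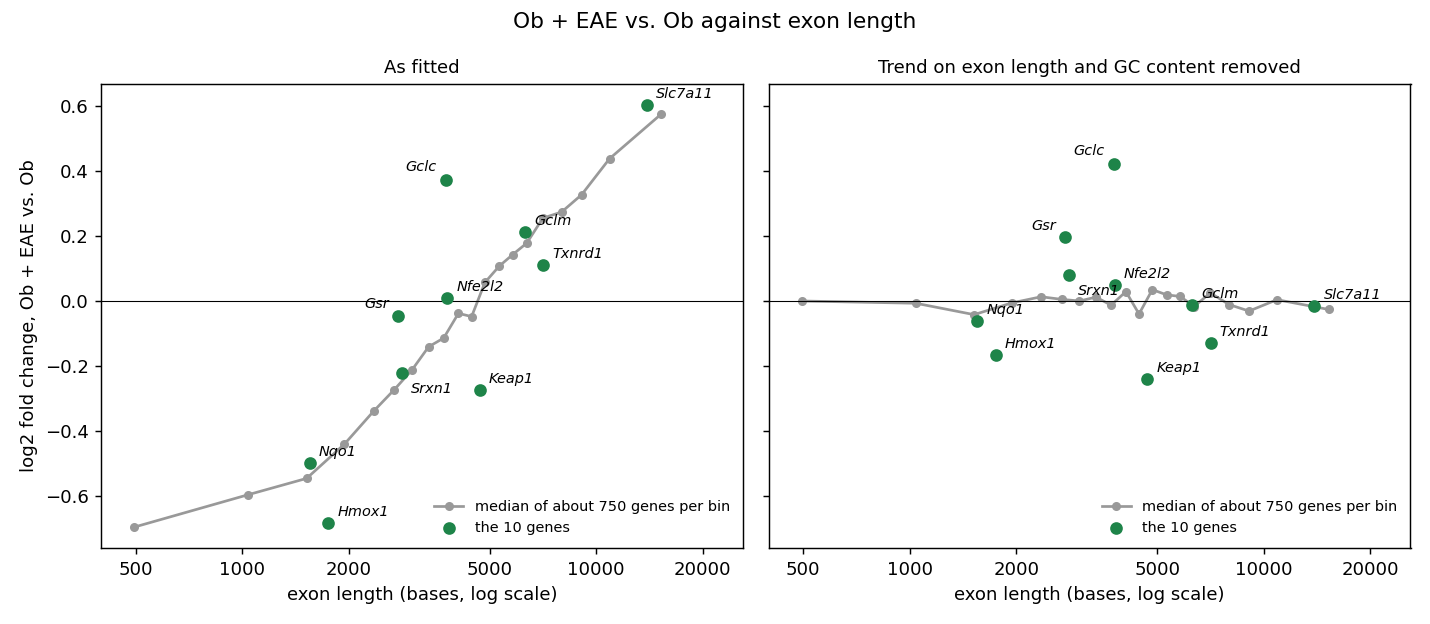
Log2FC of the 10 genes in Ob + EAE vs. Ob (green points) against exon length (x axis, log scale), with the median of 20 length bins of 752 or 753 genes (grey), as fitted on the left and with the trend on length and GC content removed on the right. On the left the grey line rises with length, with Gclc above it and Keap1 below it, and on the right Slc7a11 is at −0.015 and Gclc at 0.42.

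The Ob + CUR group has 1 library, so that its values have no replicate check. That library also had the low neuropeptide sum, 171 CPM against 915 to 3090 CPM in the others. Curcumin and the content of the tissue sample cannot be told apart here. In the Ob + CUR library, Slc7a11 was at 86.6 CPM (exact Poisson 95% interval 82.9 to 90.4, which covers counting error only). This was 2.34 times the mean of the Ob libraries, which ran from 29.8 to 43.2 CPM. Gclm, Txnrd1 and Slc7a11 were above all 11 other libraries, as were 8.52% of all 29107 genes that pass the expression filter. Gclc was above the Ob range too, Keap1 was below it, and the other 5 were inside it. Among all genes 32.3% were above and 23.5% below the Ob range. With the trend on length and GC content removed, Slc7a11 was 1.41 times the Ob mean, Gclm 1.02 times and Txnrd1 1.03 times. Hmox1 was then at 1.41 times as well, Gclc at 1.26, Nfe2l2 at 1.25, Gsr at 1.14 and Srxn1 at 1.07 times. Nqo1 was at 0.98 and Keap1 at 0.91 times the Ob mean.

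The level of Slc7a11 went with the summed level of astrocyte markers. The summed CPM of 6 such markers (Gfap, Aqp4, Aldh1l1, Slc1a3, Gja1, S100b), all detected in every library, had a Pearson r of 0.84 with Slc7a11 on the log2 scale over the 12 libraries, the highest of the 10 genes. The next were Srxn1 at 0.66, Hmox1 at 0.60, Gclm at 0.56 and Txnrd1 at 0.51, and Gsr was at −0.04. Both values come from the same library, and this relation was chosen after the values were seen. C replicate 3, the library with the lowest Slc7a11, had the lowest sum, at 436 CPM, against 743 to 1560 CPM in the others. In that library Slc1a3, the astrocyte glutamate transporter, was at 144 CPM, against 293 to 659 CPM elsewhere. Without C replicate 3, r was 0.78, and without Slc1a3, the most abundant of the 6 markers, it was 0.70. With the trend removed from Slc7a11 but not from the markers, r was 0.95. The markers did not move together between groups. In Ob + EAE, Slc1a3 (552 and 570 CPM), Gja1 and Aqp4 were above all Ob libraries. Gfap (122 and 106 CPM, against 129 to 407 CPM in Ob) and S100b (112 and 103 CPM, against 121 to 188 CPM in Ob) were below them. Aldh1l1 was inside the Ob range. In Ob + CUR, Slc1a3, Gja1 and Aqp4 were again above the Ob range and S100b, at 116 CPM, was below it. The sums overlapped between groups, at 436 to 1560 CPM in C, 743 to 1370 in Ob, 1000 to 1300 for Ob + RSV and 1130 to 1140 in Ob + EAE, with 1460 in Ob + CUR. The part of the markers in the differences of Slc7a11 between groups was not tested.

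**Figure D4:**
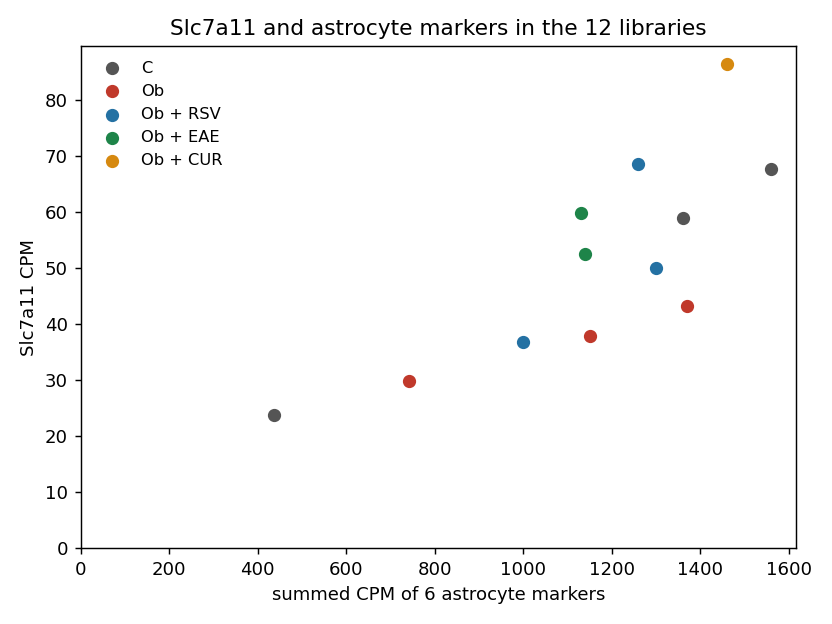
Slc7a11 in CPM (y axis) against the summed CPM of 6 astrocyte markers (x axis), with 1 point per library coloured by group. C replicate 3 is lowest on both axes, at 23.8 and 436 CPM, and Ob + CUR is highest in Slc7a11, at 86.6 CPM.

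Among themselves the 10 genes did not vary as 1 block. Of the 45 pairs, 30 had a Pearson r above 0 over the 12 libraries on the log2 scale, 16 were above 0.5, and the median was 0.29. The closest pairs were Gclm with Txnrd1 at 0.86, Gclm with Slc7a11 at 0.81, Nfe2l2 with Gclm at 0.75 and Gclc with Gclm at 0.74. Hmox1 was close to Srxn1 at 0.70 and to Nqo1 at 0.64, but not to Gclm at −0.06. Nqo1 ran against Nfe2l2 at −0.54. These are descriptions over the same 12 libraries, which differ in depth and in their trend on length and GC content, so that any pair of genes shares both. With the trend on length and GC content removed, 10 pairs were above 0.5 and the median was 0.14. The 2 ligase subunits Gclc and Gclm were then at 0.02, whereas Gclm with Slc7a11 was at 0.77 and Gclm with Txnrd1 at 0.67. Slc7a11 with Hmox1 rose from 0.25 to 0.79, and Gclc with Gsr from 0.54 to 0.78.

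**Figure D5:**
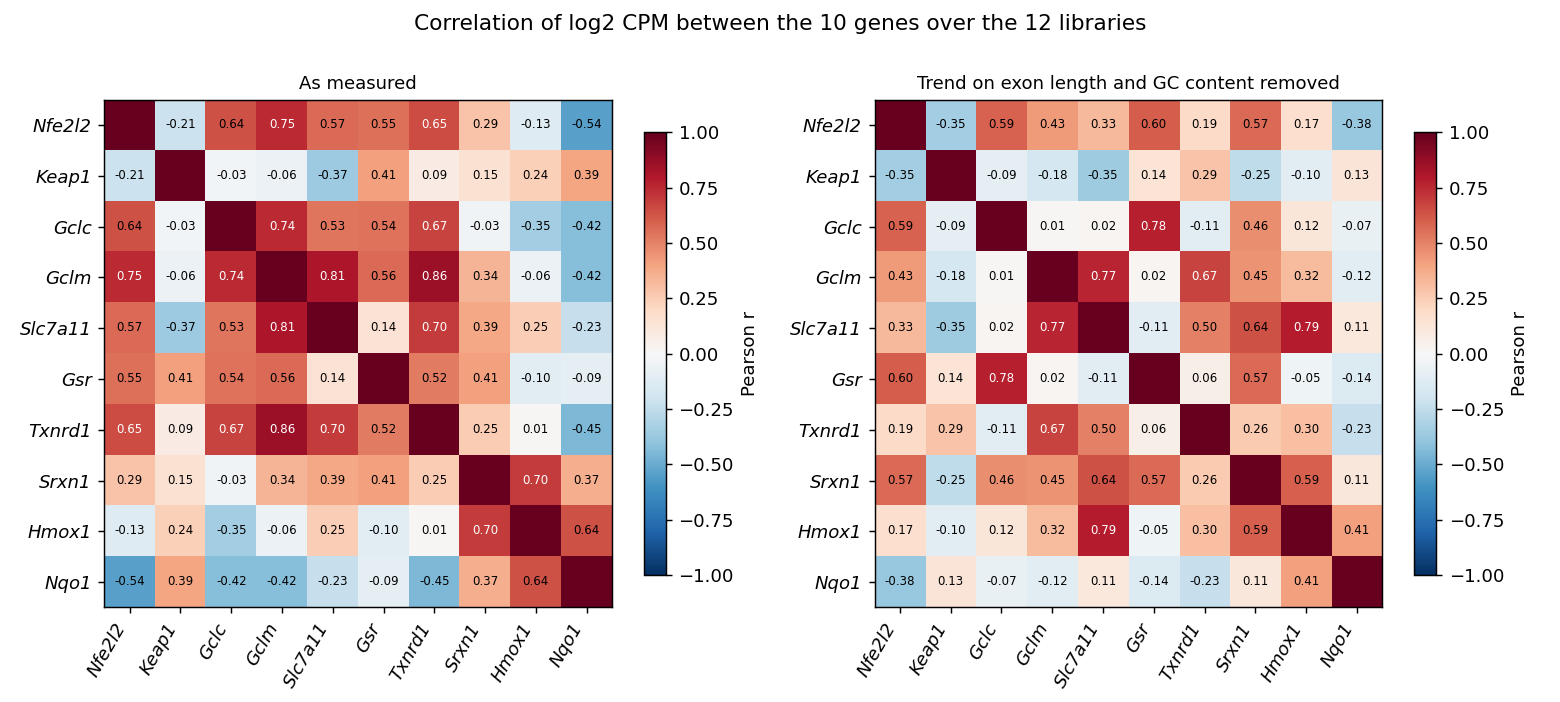
Pearson r of log2 CPM between each pair of the 10 genes over the 12 libraries, as measured on the left and with each library's trend on exon length and GC content removed on the right (red above 0, blue below). The pair Gclc and Gclm goes from 0.74 to 0.02, and Gclm with Slc7a11 goes from 0.81 to 0.77.

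The genes whose levels over the 12 libraries were most like Nfe2l2, among 29107 genes, were 2 with no symbol (ENSMUSG00000120620, r = 0.93, and ENSMUSG00000136800, r = 0.93), Eef2k at 0.92, Myof at 0.91 and Scamp2 at 0.89. The most like Hmox1 were St3gal4 at 0.92, Gnb5 at 0.92, Prdx6 at 0.90, Psat1 at 0.90 and Sirt3 at 0.89. Prdx6 is a peroxiredoxin, Psat1 an enzyme of serine synthesis and Sirt3 a mitochondrial deacetylase. None of the 10 members was among these. The genes were picked as the highest r of 29107 over 12 libraries, without a test and with the trend on length and GC content left in.

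The wider pathway was read from 5 lists of 86 genes in all, of which every gene was tested. No gene of any list was called in the comparisons of Ob with C or with Ob + RSV, and each had an edgeR adjusted p of 1. Over all genes tested, 48.8% had a log2FC above 0 in Ob vs. C (median −0.003). Against C, Ob had 18 of 24 further Nrf2 target genes with a log2FC above 0 (median 0.20), and likewise 17 of 23 superoxide, peroxide and thiol enzymes (median 0.24), 9 of 12 heme and iron genes (median 0.21) and 6 of 14 partners and regulators of Nrf2 (median −0.11). Both enzyme lists consist mostly of short genes: 17 of the 24 and 16 of the 23 were shorter than the median gene of 4261 bases. With the trend on length and GC content removed, their medians were 0.09 (14 of 24 above 0) and 0.15 (15 of 23), that of the heme and iron genes was 0.11 (12 of 12), and that of the partners and regulators turned to 0.09 (8 of 14), against −0.021 over all genes. The genes with the smallest p were Gstp1, a glutathione S-transferase, at a log2FC of 0.55 (SE 0.21), and Aox1, aldehyde oxidase, at 0.58. Among the enzymes they were Glrx5, a mitochondrial glutaredoxin, at 0.58 (SE 0.25) and Prdx5 at 0.47. Of the regulators they were Gsk3b, a kinase that marks Nrf2 for degradation apart from Keap1, at −0.45, and Mafk, a small Maf partner, at 0.48. Of the iron genes, the ferritin chains Fth1 and Ftl1 were at 0.34 and 0.31. Single libraries moved several of these values. Without C replicate 3 Fth1 was at 0.59 and Ftl1 at 0.75, and without C replicate 1 they were at 0.21 and 0.03. Without Ob replicate 1 Fth1 was at 0.16, Glrx5 at 0.26 and Prdx5 at 0.14.

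In Ob + RSV vs. Ob the medians were −0.12 for the further targets (6 of 24 above 0), −0.13 for the superoxide, peroxide and thiol enzymes (9 of 23), −0.17 for the heme and iron genes (3 of 12) and −0.06 for the partners and regulators (6 of 14). Over all genes tested the median was 0 and 49.6% had a log2FC above 0. Gstp1 was at −0.43 (SE 0.21), Abcc1, an exporter of glutathione conjugates, at −0.46, and Glrx5 at −0.52. Gpx4, the peroxidase of membrane lipids, was at −0.48, Gsk3b at 0.40 and Maff at −1.14 (SE 0.62). Ftl1 was at −0.36 and the haptoglobin gene Hp at −2.24 (SE 1.47). None of these passed the adjusted test. With the trend removed the 4 medians were −0.09 (11 of 24 above 0), −0.06 (7 of 23), −0.13 (2 of 12) and −0.05 (4 of 14), against 0.009 over all genes.

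In Ob + EAE vs. Ob, 2 of the 86 genes were called (2.33%, against 1.84% of all genes), both lower. The share is near that of all genes. Gstp1 was at 147, 104 and 94.2 CPM in Ob and at 59.3 and 51.8 in Ob + EAE. Its log2FC was −1.05 (SE 0.23, edgeR adjusted p = 0.0165). Sod1, the superoxide dismutase of the cytosol, was at 390, 210 and 219 CPM in Ob and at 133 and 122 in Ob + EAE, a log2FC of −1.10 (SE 0.27, edgeR adjusted p = 0.0268). Neither pair of groups overlapped, and for both genes Ob replicate 1 was the highest library. Without Ob replicate 1, Gstp1 was at −0.79 (edgeR adjusted p = 0.211) and Sod1 at −0.71 (edgeR adjusted p = 0.343), and neither was called. Leaving out an Ob + EAE library leaves 1, which is assumed to vary like the other groups. Without Ob + EAE replicate 1, Gstp1 was at −1.13 (edgeR adjusted p = 0.124) and Sod1 at −1.14 (0.164), and without replicate 2 they were at −0.92 (0.54) and −1.002 (0.556), so that neither was called. The stricter expression filter of edgeR, filterByExpr, ended both calls as well (edgeR adjusted p = 0.0641 and 0.0798). With the trend on length and GC content removed, Gstp1 was at −0.49 (edgeR adjusted p = 0.193) and Sod1 at −1.10 (edgeR adjusted p = 0.0847).

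Of the same lists, Txn1, thioredoxin, at −0.90, Fth1 at −0.97 and Gsk3b at 0.77 passed the adjusted p (0.0366, 0.0453 and 0.0441 in edgeR) but not the minimum on log2FC. The 3 no longer passed it without Ob replicate 1 (edgeR adjusted p = 0.291, 0.375 and 0.199), with filterByExpr (0.0791, 0.0879 and 0.078) or with the trend removed (0.349, 0.0955 and 0.478), where they were at −0.38, −0.85 and 0.33. Rbx1, a subunit of the ligase that Keap1 recruits, was at −0.71, Prdx5 at −0.97 and Blvrb, a biliverdin reductase, at −1.14. Of the 24 further targets 21 had a log2FC below 0 (median −0.51), of the 23 superoxide, peroxide and thiol enzymes 19 (median −0.57), of the 12 heme and iron genes 8 (median −0.55) and of the 14 partners and regulators 6 (median 0.12). With the trend removed the 4 medians were −0.25, −0.42, −0.28 and 0.17, against 0.098 over all genes, and no gene of the lists was called. In the Ob + CUR library Gstp1 was at 51.2 CPM and Sod1 at 133 CPM, both below the Ob range.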

How the data were processed

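Poly(A) RNA of the hypothalamus was sequenced as stranded read pairs in 12 libraries, taken as 1 per mouse, and the 3 libraries of C, Ob and Ob + RSV are given as biological replicates. The deposited values are whole read counts per gene, not normalized, which the authors made with HISAT2 2.0.5 and featureCounts 1.5.0-p3. GRCm39 is named in the submitters' processing notes, whereas no source used here gives the annotation release or strand setting.

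Symbols matched 65.7% of the gene IDs by ID, with 98.1% of the counts. GENCODE vM21, on another build than the counts, gave GC content and exon length (union of exons). The 10 members and all gene lists were chosen with earlier results of these data known. The rule for named genes took all members, the 2 genes of each pathway list with the smallest unadjusted p in each of 3 comparisons, and the 5 genes most like Nfe2l2 and Hmox1.

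Genes with at least 10 reads in total were tested with edgeR 4.0.16 (glmQLFit, glmQLFTest, TMM scaling) on R 4.3.3, with group as the factor. The comparisons of C, Ob and Ob + RSV came from 1 fit of 9 libraries (33534 genes, 6 residual degrees of freedom). Ob + EAE vs. Ob and the test among 5 groups came from 1 fit of 12 libraries (36164 genes, 7 residual degrees of freedom). Adjustment was by Benjamini-Hochberg over all genes tested. The SE is the log2FC divided by the square root of F. Log2 levels used a prior count of 2. Alternatives were RLE and upper quartile scaling, filterByExpr or no filter, DESeq2 1.42.0, other sets of libraries, a replicate block, other call rules and leaving out each library. Removal of the length and GC trend and leaving out 3 libraries that stand apart were added after the data were seen. The procedure was tested on simulated data. P-values cover the spread between these libraries, taken as 1 per mouse. Python 3.11.15 with pandas 2.3.3 and, for plots, matplotlib 3.10.9 was used.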

Additional observations from a re-analysis of the deposited data

How the results depend on the processing

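Over 18 alternatives for each comparison of C, Ob and Ob + RSV and 16 for Ob + EAE vs. Ob, none of the 10 genes gained a call in those 4 comparisons. Of 700 values 629 kept their direction and 71 changed it. The 629 include the alternatives that changed only the call rule (no minimum on log2FC, unadjusted p). These reuse the log2FC of the main fit, so their direction could not change. Hmox1 and Nqo1 had the fewest reads, 948 and 1423 over the 12 libraries, and the largest SE in each of the 4 comparisons. Among the 5 groups, Slc7a11 alone gained a call, with 1 of the 10 genes called with no filter beyond 1 read, with the replicate block and on the unadjusted p.

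The replicate numbers of the labels were tried as a pairing. Deviations of same-numbered libraries from their group means had a correlation of −0.063 to 0.217, not above 0.1 in every pair. The highest were 0.217 and 0.185, both between Ob and Ob + RSV. These values cannot show whether equal numbers mark a shared batch, and the main fits used no pairing. In the order Ob vs. C, Ob + RSV vs. Ob, Ob + RSV vs. C, Ob + EAE vs. Ob and the 5 groups, 50, 10, 35, 1417 and 2940 genes were called with the replicate block, where Srxn1 in Ob vs. C was at 0.002 and Gsr in Ob + EAE vs. Ob at 0.013.

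The number of genes called moved with other settings. In the same order it was 35, 11, 32, 1031 and 1522 with no filter beyond 1 read, and 388, 733, 790, 1757 and 3131 on unadjusted p. In Ob + EAE vs. Ob and among the 5 groups it was 77 and 28 with filterByExpr, 38 and 31 with the length and GC trend removed, and 1 and 20 without the 3 libraries that stand apart. DESeq2 called 922 among the 5 groups. Leaving out 1 library gave 0 to 11 in Ob vs. C (11 without C replicate 3), 0 to 2 in Ob + RSV vs. Ob, 0 to 3 in Ob + RSV vs. C, 18 to 1172 in Ob + EAE vs. Ob and 87 to 1001 among the 5 groups (87 without Ob + EAE replicate 2, 1001 without Ob + RSV replicate 3). The median log2FC of the 10 genes in Ob + RSV vs. C then ran from −0.227 to 0.128.

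The values that changed direction are log2FC. In Ob vs. C, Srxn1 was at 0.006 with RLE scaling and with DESeq2, 0.003 with upper quartile scaling, 0.012 with filterByExpr, 0.015 with 12 libraries and 0.007 with the 2 groups alone. Gclm in Ob + RSV vs. Ob was at 0.008 and Gclc in Ob + RSV vs. C at 0.003 with upper quartile scaling, 0.004 and 0.006 with filterByExpr, and Gclc at 0.004 with 12 libraries. With the trend removed, Gclm was at 0.017 and Txnrd1 at 0.025 in Ob vs. C, Srxn1 at 0.126 in Ob + RSV vs. Ob. For Ob + EAE vs. Ob, Gclm was then at −0.012, Txnrd1 at −0.128, Srxn1 at 0.08, Gsr at 0.198 and Slc7a11 at −0.015.

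Without the 3 libraries that stand apart, Ob vs. C gave Nfe2l2 0.061, Keap1 −0.012, Nqo1 −0.095, Gclc 0.069, Srxn1 0.006, Mafk −0.011 and Ddit4 −0.279. Ob + RSV vs. Ob gave Keap1 0.067, Gclm 0.129, Txnrd1 0.016, Srxn1 0.156, Gsr 0.054 and Gpx4 0.112. Ob + RSV vs. C gave Gclc 0.097, Gclm 0.099 and Srxn1 0.162, and Ob + EAE vs. Ob gave Nfe2l2 −0.152.

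Leaving out 1 library at a time gave these ranges. In Ob vs. C, Srxn1 ran from −0.156 to 0.102, Keap1 from −0.021 to 0.327, Gclc from −0.183 to 0.121 and Ddit4 from −0.183 to 1.058. In Ob + RSV vs. Ob, Nfe2l2 ran from −0.548 to 0.019, Keap1 from −0.436 to 0.072, Hmox1 from −0.043 to 0.241, Nqo1 from −0.117 to 0.31, Gclc from −0.191 to 0.204, Gclm from −0.156 to 0.148, Txnrd1 from −0.121 to 0.061, Srxn1 from −0.124 to 0.102, Gsr from −0.251 to 0.084 and Gpx4 from −0.738 to 0.107. In Ob + RSV vs. C, Keap1 ran from −0.26 to 0.256, Gclc from −0.251 to 0.148, Gclm from −0.268 to 0.044, Srxn1 from −0.174 to 0.107 and Slc7a11 from −0.31 to 0.299. In Ob + EAE vs. Ob, Nfe2l2 ran from −0.195 to 0.281 and Gsr from −0.103 to 0.063. Apart from fewer libraries or genes tested, the cause of these changes was not tested.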

Other observations

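The response to amino acid lack and stress that Atf4 controls shares Slc7a11 with the Nrf2 program, and was read from 13 genes. No gene of this list was called in any comparison. In Ob vs. C, 8 of 13 had a log2FC above 0 (median 0.12; 0.025 and 7 of 13 with the trend on length and GC content removed), with Ddit3 at 0.39 and Ddit4 at 0.48, both regulators of the stress response. In Ob + RSV vs. Ob, 5 of 13 were above 0 (median −0.02), and 8 of 13 with the trend removed (median 0.055). Cth, which makes cysteine, was at 0.58 (SE 0.52), at 0.25 without Ob replicate 1 and at 1.22 without Ob replicate 2, and Asns, asparagine synthetase, was at 0.23. In Ob + EAE vs. Ob, 12 of 13 were below 0 (median −0.35), with Atf4 at −0.76 (SE 0.22, edgeR adjusted p = 0.0543) and Ddit3 at −0.93. Of the 13 genes, 12 were shorter than the median gene of 4261 bases, and with the trend on length and GC content removed 8 were below 0 (median −0.28). Over the 12 libraries the summed level of this list had a Pearson r of 0.87 with Hmox1, 0.73 with Srxn1 and 0.12 with Slc7a11. The trend was not removed from these values, and Slc7a11, of 13922 bases, is long where most of the list is short. With the trend removed, the r of Slc7a11 with Hmox1 itself went from 0.25 to 0.79. The r of Slc7a11 with the list was not computed with the trend removed, so the part of the trend in it was not tested.

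Markers of other cell types were read in the same libraries. The 5 endothelial markers summed to 225 and 228 CPM in Ob + EAE and 254 CPM in Ob + CUR, against 48.1 to 127 CPM in the other libraries. In Ob + EAE vs. Ob, 4 of the 5 were called higher, against 1.84% of all genes, with Flt1, a receptor for vascular endothelial growth factor, at a log2FC of 1.77 (SE 0.30, edgeR adjusted p = 0.00391). Without Ob replicate 1, where the calls over all genes fell from 665 to 18, 1 of the 4 was called, Flt1 at 1.51. With the trend removed, which left 38 calls over all genes, 0 of the 4 were, with Flt1 at 1.31 (edgeR adjusted p = 0.0612). DESeq2 called all 4. Markers of mural cells and fibroblasts summed to 143 to 166 CPM in Ob + EAE and Ob + CUR and to 73.8 to 97.9 CPM elsewhere. Markers of ependyma and tanycytes summed to 37.4 to 43.2 CPM in Ob + EAE and to 49.5 to 155 CPM elsewhere. The neuron markers summed to 2460 to 3110 CPM. The microglia markers summed to 158 to 173 CPM in Ob + EAE, below the 175 to 183 CPM of C and inside the 148 to 181 CPM of Ob, and to 119 to 189 CPM over all libraries. One of them, Aif1, was called lower in Ob + EAE vs. Ob, at −1.92 (SE 0.50, edgeR adjusted p = 0.0356). The oligodendrocyte markers summed to 4210 to 4540 CPM in Ob + EAE and 4080 CPM in Ob + CUR, below the 5490 to 5960 CPM of Ob and the 5810 to 7490 CPM of Ob + RSV, with 4200 to 6290 CPM in C. The 8 neuropeptide genes summed to 915 to 1100 CPM in Ob + EAE, below the 1300 to 3090 CPM of Ob, and Avp, vasopressin, was called lower, at −1.85 (SE 0.37, edgeR adjusted p = 0.00948). Without Ob replicate 1 neither Aif1 (edgeR adjusted p = 0.176) nor Avp (0.0632) was called, nor were they with the trend removed (0.161 and 0.0883). The sums of the remaining lists were 60 to 262 CPM for red cells, 5.39 to 19.3 CPM for choroid plexus, 4.09 to 39.2 CPM for cortex and hippocampus and 66.1 to 284 CPM for thalamus. C replicate 1 had the highest sum of both the cortex and hippocampus list and the thalamus list. In Ob vs. C all 4 markers of each of these lists had a log2FC below 0 (medians −0.78 and −0.80), and none was called. The sums overlapped, at 11.9 to 39.2 CPM in C and 7.65 to 15.3 in Ob for cortex and hippocampus. For thalamus they were 110 to 284 CPM in C and 66.1 to 161 in Ob. The part of these markers in the differences of the antioxidant genes was not tested.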
